A study of Mus musculus with 14 samples.

Results

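The expression of 10 genes of the hepatic methionine cycle and transsulfuration route was followed through acute liver injury: Mat1a, Mat2a, Gnmt, Pemt, Ahcy, Bhmt, Bhmt2, Cbs, Cth and Cdo1. They were chosen by name, by their gene symbol in the deposited count files, and are 10 of the 55357 genes listed there. All 10 had a row and all 10 passed the filter on low counts. The samples were livers of male C57BL/6 mice aged 5 to 6 weeks and weighing 21.5 to 25 g, with no transgene or deletion named in the labels. The 8 model mice were injected intraperitoneally with lipopolysaccharide (LPS, a bacterial outer membrane component) at 10 µg/kg and D-galactosamine (D-GalN, an amino sugar toxic to hepatocytes) at 300 mg/kg. The 6 control mice were injected with normal saline, and livers of both groups were collected 24 h later for poly(A) RNA sequencing. Whether every library came from its own mouse is not stated in the labels, and nor are shared cages or days. The p-values therefore cover the spread among these 14 libraries, which may be partly technical.

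The methionine cycle makes S-adenosylmethionine, the methyl donor of most methylation reactions, from methionine and ATP. After the methyl group is handed on, S-adenosylhomocysteine is split to homocysteine, which is either methylated back to methionine or passed through transsulfuration to cysteine, the precursor of glutathione and taurine. The liver carries most of this flux, and hepatocytes are known for high levels of MAT1A, GNMT and BHMT, enzymes that are low or absent in most other tissues.

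Of the 10 genes, 1 rose (Mat2a), 1 fell (Bhmt2) and 8 did not pass the test at a Benjamini-Hochberg adjusted p under 0.05 in edgeR's quasi-likelihood fit over 12915 genes. In the same comparison 26.6% of all tested genes rose and 21.3% fell, 47.9% in either direction. The members were thus called at 2 of 10 in a tissue in which close to 1 gene in 2 was called. The median log2 fold change (model over control) of the members was -0.07, beside 0.0099 for all tested genes, and the median size of the change without its sign was 0.31 for the members and 0.66 for all tested genes. None of the 10 changed by 2-fold or more, while 32.9% of all tested genes were called at that size. The split of calls over all genes, 3437 higher and 2751 lower, was 2533 and 3955 when libraries were scaled by their totals alone and 2992 and 3514 with upper-quartile factors. Scaling by totals moved the median log2 fold change of all genes to -0.23, and member values under that scaling are to be read against this shift.

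The tissue label was checked against hepatocyte genes, and cells other than hepatocytes were checked by their own markers. All 17 hepatocyte markers were detected and tested, with 6 higher, 0 lower and 11 not called, and their summed level was 118762 to 142019 CPM (the count as a share of the scaled library total) in model and 82088 to 105319 CPM in control libraries. Of 9 tested pericentral hepatocyte markers 4 were higher and 0 lower, and of 10 periportal ones 4 were higher and 2 lower. Of 12 neutrophil markers, 11 were tested and all 11 rose, with a summed level of 1276 to 2895 CPM in model against 4.33 to 17.1 CPM in control, where Ly6g was at 0. Monocyte and macrophage markers rose for 9 of 12 and fell for 1 (556 to 920 against 263 to 483 CPM). Stellate cell and fibroblast markers rose for 8 of 10 and fell for 1 (420 to 834 against 193 to 242 CPM). Cholangiocyte markers rose for 5 of 5 tested (60.5 to 126 against 31.3 to 56.4 CPM). Red cell markers rose for 5 of 5 tested and spread from 1211 to 25563 CPM in model, with libraries 3 and 4 at 25563 and 17460 CPM, against 422 to 1611 CPM in control. Endothelial markers were mixed, with 4 of 9 higher and 3 lower, and the T, NK and B cell and proliferation lists had 3 of 7 and 3 of 6 tested genes higher. Fewer cells of a type and less RNA per cell cannot be told apart in bulk tissue. The part of these cell types in the member values below was not tested.

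Levels were compared between genes per kilobase of exon, since longer transcripts give more counts. At the control medians the order was Gnmt (1792 CPM per kilobase), Cdo1 (596.8), Ahcy (395.7), Bhmt (391.0), Mat1a (258.0), Pemt (170.6), Cth (105.3), Bhmt2 (72.6), Cbs (17.7) and Mat2a (11.9). Gnmt was first and Mat2a last in both groups whether the union of exons, the longest transcript or the coding length was used. Some of the places between them depended on which length was taken. Ahcy and Bhmt were neighbours whose control ranges per kilobase overlapped. Reads of both can be split with near-identical copies, given below, whose counts were not added here. At the model medians Bhmt (512.8 CPM per kilobase) stood above Cdo1 (425.4), the reverse of their control order. By coding length there was no reversal, as Bhmt was above Cdo1 in controls too (1844 against 1524). Member counts ran from 377 to 56487 reads per gene and library, so counting error was small beside the spread between libraries.

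The methionine adenosyltransferases were described first. Mat1a encodes the catalytic subunit of the liver-specific enzyme that makes S-adenosylmethionine. Mat2a encodes that of the form known mainly from outside the adult liver and from dividing hepatocytes. Mat2a was also counted in every control liver here, at 47.8 CPM or more, and which cells held it was not tested. Mat1a was at 373.6, 752.9 and 1064 CPM in the model libraries (lowest, median and highest) and at 639.8, 894.9 and 1443 CPM in the controls. The groups overlapped in 5 of 8 model libraries, and 3 lay below the lowest control. The difference was not called (log2 fold change -0.39, SE 0.24, 95% interval -0.89 to 0.11, edgeR adjusted p = 0.187). Control library 6 held the highest Mat1a level of all, and without it the log2 fold change was -0.18.

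Mat2a moved the other way. Its level was 55.7, 74.9 and 125.7 CPM in model and 47.8, 53.5 and 69.9 CPM in control libraries. Of the 8 model libraries 5 were above every control, and libraries 7 and 8, at 125.7 and 124.7 CPM, stood well above the other 6, which lay between 55.7 and 80.2 CPM. The mean was 82.7 ± 27.7 CPM (SD, n = 8) against 55.9 ± 9.01 CPM (SD, n = 6), a log2 fold change of 0.56 (SE 0.21, 95% interval 0.11 to 1.02, edgeR adjusted p = 0.0381). This call sat close to the threshold. It was lost when model library 7 (0.46, adjusted p = 0.0743) or model library 8 (0.46, adjusted p = 0.0713) was left out, and likewise without control library 1, 2, 3 or 5, where the adjusted p reached 0.0843. With model libraries 7 and 8 both left out the log2 fold change was 0.34 (adjusted p = 0.0983), and with library totals it was 0.33 (adjusted p = 0.283). Mat2a shares 11.3% of its exon bases with Particl, a transcript of the opposite strand, and since no strand setting is stated reads of the pair cannot be separated.

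Within a library, the ratio of the 2 catalytic subunits needs no scaling factor. There were 4.71, 8.52 and 15.1 Mat1a counts per Mat2a count in model libraries (lowest, median, highest) and 12.2, 16.9 and 20.9 in controls. The ratio was below the lowest control in 6 of 8 model libraries, and the mean was 9.31 ± 3.58 (SD, n = 8) against 16.8 ± 3.64 (SD, n = 6). Per kilobase of exon the ratio ran from 6.09 to 19.6 in model and from 15.7 to 27.0 in control, so Mat1a stayed the more abundant transcript in every library. The ratio is given as a description, with no test. Model libraries 7 and 8, at 6.28 and 7.17 counts, were not the lowest, which was library 1 at 4.71.

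**Figure D1:**
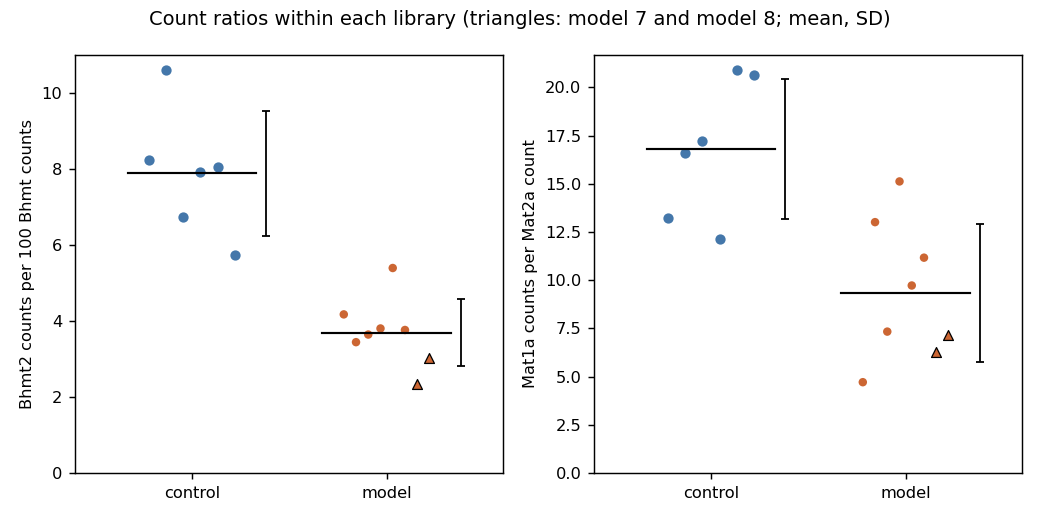
Count ratios within each library for control (n = 6) and model (n = 8) livers, with each point a library, the bar the mean and the whisker the SD, and triangles marking model libraries 7 and 8. Bhmt2 per 100 Bhmt counts ran from 2.33 to 5.39 in model and from 5.74 to 10.6 in control with no overlap, while Mat1a per Mat2a count overlapped in 2 of 8 model libraries.

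The promoters of Mat2a and Bhmt2, the called members, are shown as the sequences of the genes that passed the test. They are RefSeq sequences of build GRCm38.p6, which is not the build of the count files, and are written 5′ to 3′ on the gene's strand, ending at the base before the transcript start. Mat2a is at chr6:72439557-72439806 and Bhmt2 at chr13:93674303-93674435, both on the minus strand. The Bhmt2 stretch is cut at 133 bases because Dmgdh starts there on the other strand, 134 bases from the Bhmt2 start. Capitals mark TATAAA and GGGCGG on either strand (TTTATA and CCGCCC in reverse).
Mat2a: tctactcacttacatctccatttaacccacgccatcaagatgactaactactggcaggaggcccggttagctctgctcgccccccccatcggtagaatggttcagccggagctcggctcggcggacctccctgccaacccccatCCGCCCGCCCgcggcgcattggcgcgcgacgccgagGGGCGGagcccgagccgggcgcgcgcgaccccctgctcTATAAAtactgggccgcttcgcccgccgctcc
Bhmt2: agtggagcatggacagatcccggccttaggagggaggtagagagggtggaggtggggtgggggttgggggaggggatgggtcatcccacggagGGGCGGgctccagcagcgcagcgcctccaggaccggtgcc

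The 250 bases before the Mat2a start hold 29 CG dinucleotides, a number reached by 6.78% of 32851 mouse promoters of that length, whose median is 6. They also hold 1 TATAAA, which 12.4% of those promoters have on either strand, and 3 GGGCGG matches, 2 of them overlapping, a motif present in 32.7%. The stretch between Bhmt2 and Dmgdh holds 1 GGGCGG and no TATAAA. Over the full 250 bases before Bhmt2, which run into Dmgdh, there are 20 CG dinucleotides (reached by 17.9% of promoters) and 2 GGGCGG. Among members that were not called, Cbs holds 21 CG dinucleotides and 2 GGGCGG in its 250 bases, Ahcy 9 and 1, Gnmt 6 and 0, and Bhmt 5 and 0. The 2 Pemt entries hold 1 and 2 CG dinucleotides and no GGGCGG, and TATAAA was found in the window of no member other than Mat2a. The called and the uncalled members thus overlap in these features. Of the 10 members, 7 had an entry. These are matches of letters in a window and say nothing of binding.

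The next genes use the methyl group or clear its by-product. Gnmt encodes glycine N-methyltransferase, an abundant liver enzyme that uses up surplus S-adenosylmethionine. Its level was 1200, 2788 and 4829 CPM in model and 1335, 2162 and 3049 CPM in control libraries. Model library 3 was the highest and library 8 the lowest of all 14, and the model range held the whole control range. Gnmt was not called (log2 fold change 0.28, SE 0.30, 95% interval -0.34 to 0.91, edgeR adjusted p = 0.450). Without model library 3 the value was 0.12, without libraries 3 and 4, those with the most red cell RNA, 0.02, and without libraries 7 and 8 it was 0.56 (edgeR adjusted p = 0.0752). With library totals it was 0.04.

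Pemt encodes the enzyme that methylates phosphatidylethanolamine to phosphatidylcholine, a large consumer of methyl groups in liver. It was at 154.6, 278.7 and 443.0 CPM in model and at 209.3, 359.0 and 469.3 CPM in control libraries. Libraries 7 and 8 were the lowest of the model group, 3 model libraries lay below the controls and none above. The difference was not called (log2 fold change -0.27, SE 0.28, 95% interval -0.85 to 0.31, edgeR adjusted p = 0.444). Without model libraries 7 and 8 the log2 fold change was -0.02. It was -0.17 without either of them alone and -0.15 without control library 1.

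Ahcy encodes S-adenosylhomocysteine hydrolase, which removes the product that inhibits methyltransferases. Its level was 597.9, 1101 and 1280 CPM in model and 884.9, 1110 and 1174 CPM in control libraries. Model libraries 7 and 8 were at 738.7 and 597.9 CPM, below all controls, while the other 6 lay between 1084 and 1280 CPM. The medians of the groups were close, and the difference was not called (log2 fold change -0.06, SE 0.19, 95% interval -0.46 to 0.35, edgeR adjusted p = 0.826). Without libraries 7 and 8 the log2 fold change was 0.15, also not called. Reads of Ahcy can be split with near-identical copies: Gm4737 matches its transcript at 99.7% over 2083 bases and held 21.1% as many counts, and Gm9826 matches at 99.2% and held 1.81% as many. Gm4737 and Gm9826 had log2 fold changes of 0.07 and 0.04 and were not called, and the summed level of Ahcy and its copies was 1284 ± 293 CPM in model (SD, n = 8) and 1315 ± 150 CPM in control (SD, n = 6).

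A further pair remakes methionine. Bhmt encodes betaine-homocysteine methyltransferase, which remakes methionine from homocysteine with betaine as the donor. Bhmt2 encodes a related enzyme that uses S-methylmethionine. The genes lie next to each other on chromosome 13, on the same strand.

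Bhmt was at 1072, 2953 and 4175 CPM in model and at 1706, 2251 and 3091 CPM in control libraries. The groups overlapped, with 4 model libraries above the highest control and 1, library 8, below the lowest. The difference was not called (log2 fold change 0.25, SE 0.26, 95% interval -0.30 to 0.79, edgeR adjusted p = 0.447). Without model libraries 7 and 8 the value was 0.48 (edgeR adjusted p = 0.0758), without model libraries 3 and 4 it was 0.06, and with library totals it was -0.04. Leaving out 1 library gave 0.15 (without model library 4) to 0.38 (without model library 8). Gm5096, which matches Bhmt at 99.6% over 545 bases, held 6.52% as many counts and had a log2 fold change of 0.28. The summed level of Bhmt and its copies was 3022 ± 1047 CPM in model (SD, n = 8) and 2540 ± 594 CPM in control (SD, n = 6).

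Bhmt2 was at 32.4, 112.9 and 158.6 CPM in model and at 162.0, 179.0 and 200.3 CPM in control libraries. All 8 model libraries were below all 6 controls, a separation downwards that 8.63% of all tested genes showed. No member was separated upwards, as 14.6% of all tested genes were, so 1 of 10 members was separated in either direction beside 23.2% of all tested genes. The mean was 106 ± 43.4 CPM (SD, n = 8) against 181 ± 13.0 CPM (SD, n = 6), a log2 fold change of -0.77 (SE 0.28, 95% interval -1.35 to -0.19, edgeR adjusted p = 0.0279). Libraries 7 and 8, at 53.2 and 32.4 CPM, were far below the other 6, which lay between 102.7 and 158.6 CPM. Without them Bhmt2 was still called, at a log2 fold change of -0.46 (edgeR adjusted p = 0.0205). Leaving out each library in turn kept the call, with adjusted p up to 0.0491. The call was lost in 1 of 24 alternatives, a fit with a block for the replicate number (-0.48, edgeR adjusted p = 0.0695).

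The neighbours Bhmt and Bhmt2 were also set against each other within libraries. There were 2.33, 3.70 and 5.39 Bhmt2 counts per 100 Bhmt counts in model libraries and 5.74, 7.99 and 10.6 in controls. The ratio was below every control in 8 of 8 model libraries, libraries other than 7 and 8 included, and the mean was 3.69 ± 0.886 (SD, n = 8) against 7.88 ± 1.64 (SD, n = 6). On the log2 scale the mean ratio differed by -1.10. The ratio was chosen after member values were known and is given with no test. Dmgdh, the gene on the other side of Bhmt2, encodes dimethylglycine dehydrogenase, which takes the product of the betaine reaction, with a mean level of 388 ± 86.0 CPM in model (SD, n = 8) against 254 ± 83.1 CPM in control (SD, n = 6). Its call as higher (log2 fold change 0.61, edgeR adjusted p = 0.0312) was lost without model library 2 (0.46, adjusted p = 0.115), without control library 1, 2 or 4, and with library totals (0.33, adjusted p = 0.316).

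**Figure D2:**
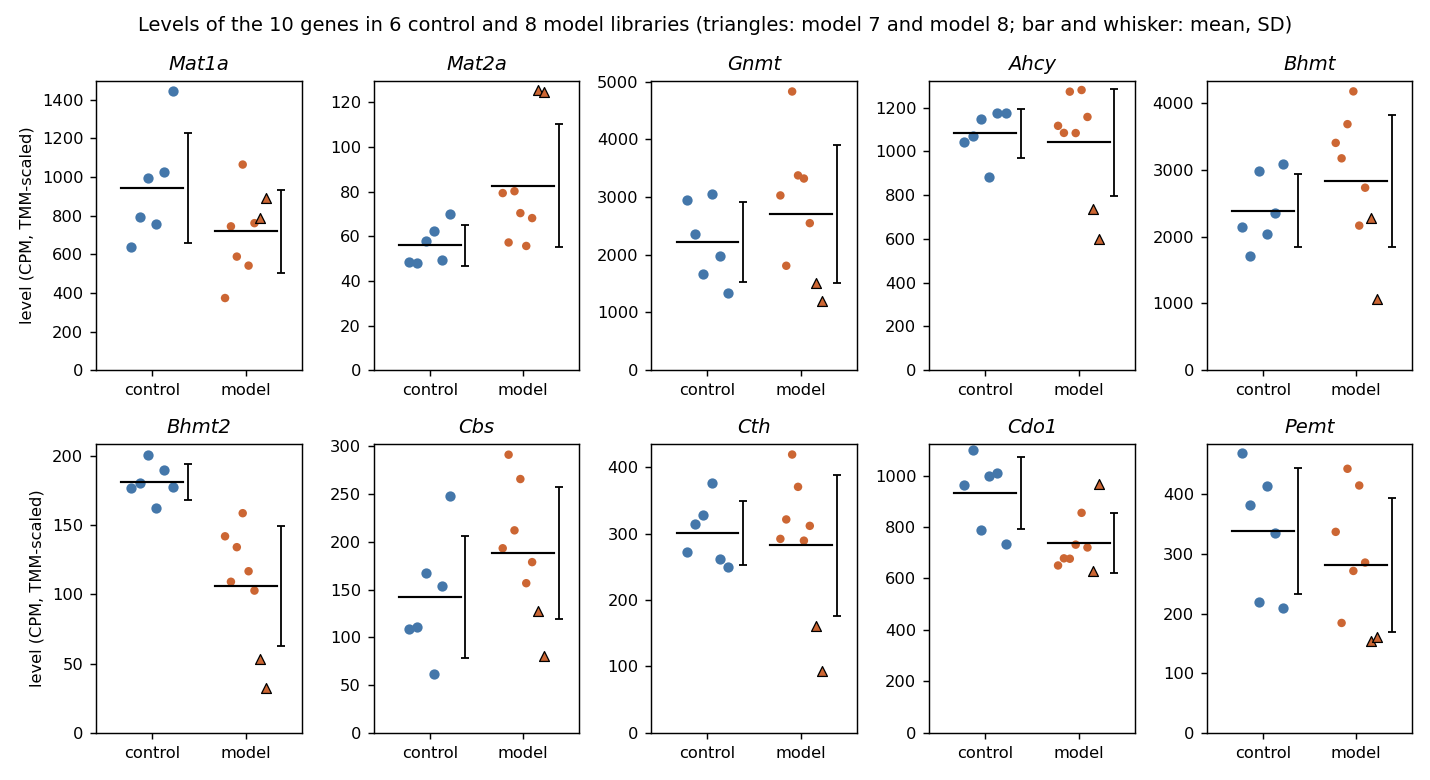
Level of each member in CPM, scaled with TMM factors, in 6 control and 8 model libraries on axes that start at 0, with each point a library, the bar the mean, the whisker the SD, and triangles marking model libraries 7 and 8. Bhmt2 is the member whose groups do not overlap, and libraries 7 and 8 sit at the top of the model group for Mat2a and at its bottom for Gnmt, Ahcy, Bhmt2, Cbs, Cth and Pemt.

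Transsulfuration starts with a pair of enzymes. Cbs encodes cystathionine β-synthase, which joins homocysteine to serine, and Cth encodes cystathionine γ-lyase, which releases cysteine. Cbs was at 80.9, 186.1 and 291.4 CPM in model and at 61.9, 132.7 and 247.8 CPM in control libraries. It varied about as much among controls as among model libraries, with a coefficient of variation of 45.1% and 36.7%, and the groups overlapped in 6 of 8 model libraries. Cbs was not called (log2 fold change 0.41, SE 0.30, 95% interval -0.23 to 1.05, edgeR adjusted p = 0.283). Leaving out 1 library gave from 0.22 (without model library 2) to 0.68 (without control library 6, edgeR adjusted p = 0.0698). Without model libraries 7 and 8 the value was 0.66 (edgeR adjusted p = 0.0801), and with library totals it was 0.09. A stretch of 422 bases of its longest transcript matches Rdh16 at 90.5%.

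Cth was at 93.9, 301.9 and 419.0 CPM in model and at 250.01, 293.8 and 375.9 CPM in control libraries. Libraries 7 and 8 were at 161.3 and 93.9 CPM, below all controls, and the other 6 lay between 289.4 and 419.0 CPM. The difference was not called (log2 fold change -0.09, SE 0.27, 95% interval -0.65 to 0.47, edgeR adjusted p = 0.796). Without libraries 7 and 8 it was 0.20, also not called.

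Cdo1 encodes cysteine dioxygenase, which commits cysteine to taurine and sulfate and is known for wide swings of its protein with cysteine supply. It was at 629.7, 699.3 and 968.8 CPM in model and at 735.5, 981.1 and 1100 CPM in control libraries. Of 8 model libraries 6 lay below the lowest control and none above the highest. The difference was not called (log2 fold change -0.34, SE 0.17, 95% interval -0.69 to 0.02, edgeR adjusted p = 0.106), but was with upper-quartile factors (-0.49, adjusted p = 0.0288), with library totals (-0.55, adjusted p = 0.00964) and with DESeq2 (-0.37, adjusted p = 0.0281). It was not called with limma-voom (-0.34, adjusted p = 0.087) or with an offset on exonic length and GC content (-0.17, edgeR adjusted p = 0.403). Library 8, the lowest for 6 other members, was the highest of the model group for Cdo1, and library 7 was the lowest.

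**Figure D3:**
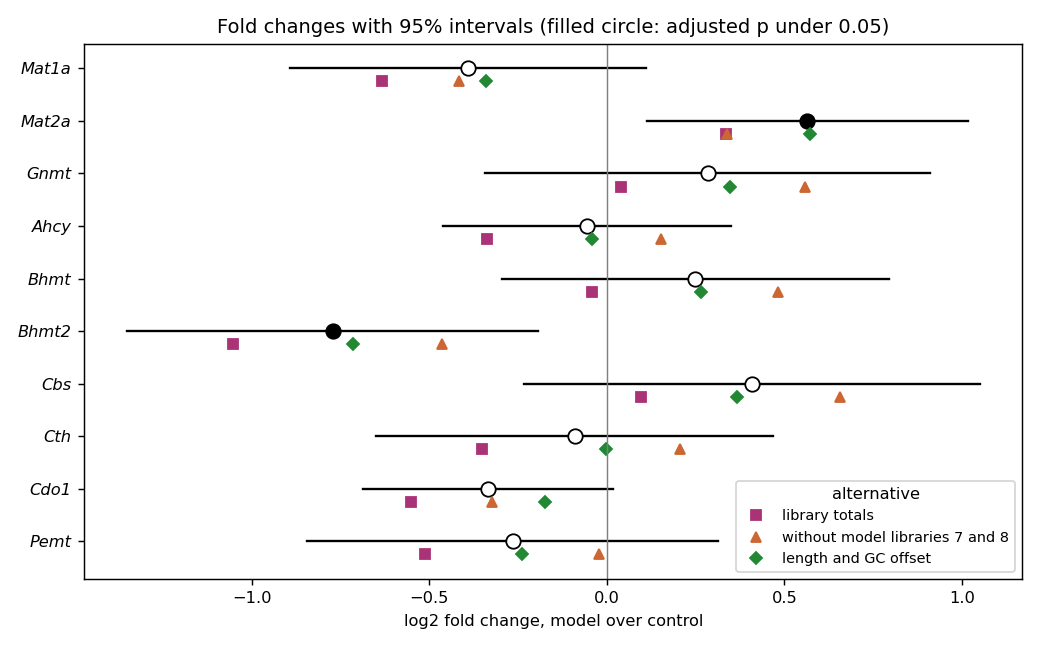
Log2 fold change, model over control, of the 10 members with 95% intervals (circles, filled where the edgeR adjusted p was under 0.05), and the value under 3 alternatives as coloured marks. The intervals of 8 members include 0, and leaving out model libraries 7 and 8 moves Mat2a, Bhmt2 and Pemt towards 0 (0.34, -0.46 and -0.02) and Gnmt, Bhmt and Cbs away from it (0.56, 0.48 and 0.66). Libraries 7 and 8 lay at an end of the model group in most members, so the direction of these shifts follows from their levels.

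Model libraries 7 and 8 stood apart from the other 6 in most members. Both were the 2 lowest of the model group in Gnmt, Ahcy, Bhmt2, Cbs, Cth and Pemt and the 2 highest in Mat2a. The summed level of the 10 members was 6575 and 5225 CPM in these libraries, the latter the lowest of all, beside a model range of 5225 to 12339 CPM and a control range of 8058 to 8821 CPM. They held 16639972 and 13601511 counts in genes, library 7 being the deepest of all, beside a model range of 10329469 to 16639972 and a control range of 7914120 to 14463540. Their hepatocyte marker sums, 140993 and 142019 CPM, were at the top of the model range, and their neutrophil marker sums, 1276 and 1549 CPM, in its lower part. Their red cell marker sums were 2052 and 1211 CPM, against a model median of 8041 CPM. The part of these differences in the member values was not tested. The labels give no reason for setting libraries 7 and 8 apart. Control library 6 was in part alike among controls, as the highest in Mat2a and the lowest in Gnmt, Cth and Pemt. In Ahcy and Cbs, by contrast, control library 6 was the highest control.

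The spread among model libraries was wider than among controls for some members and not for others. The coefficient of variation was 40.9% in model and 7.17% in control for Bhmt2, 37.7% and 15.9% for Cth, 33.5% and 16.1% for Mat2a and 23.6% and 10.3% for Ahcy. It was alike in both groups for Mat1a (29.96% and 30.3%) and Cdo1 (15.7% and 15.1%). Without libraries 7 and 8, Cth ran from 289.4 to 419.0 CPM in model, beside 250.01 to 375.9 CPM in controls. Mat2a then ran from 55.7 to 80.2 CPM (controls 47.8 to 69.9) and Ahcy from 1084 to 1280 CPM (controls 884.9 to 1174). The wider model spread of Cth, Mat2a and Ahcy thus rested on libraries 7 and 8. Bhmt2 stayed wider without them, from 102.7 to 158.6 CPM (controls 162.0 to 200.3).

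Members were also compared by how they varied together within groups, as the correlation of log2 CPM after subtracting group means over 14 libraries, which share scaling and depth. These values are a description, with no test. Gnmt and Pemt, both users of methyl groups, were the most alike (Pearson's r = 0.94, Spearman's rho = 0.88), with r = 0.92 without model libraries 7 and 8. Bhmt2 and Cth (0.92) and Ahcy and Bhmt2 (0.90) came next, but at 0.19 and 0.16 without libraries 7 and 8 these rested on those libraries. Bhmt varied with its neighbour Bhmt2 (0.84, and 0.60 without them) and with Cbs (0.82, and 0.70 without them) and against Cdo1 (-0.77, and -0.82 without them). Mat1a had no close partner among the members. Mat2a was the nearest at 0.32 (0.14 without libraries 7 and 8), and Pemt the farthest at -0.68 (-0.67 without them).

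Gnmt and Pemt followed the second principal component of all tested genes, which held 14.2% of the variance, with r = 0.95 and 0.97 within groups, while Mat1a and Mat2a ran against it at -0.71 and -0.62. The lowest scores on this component were those of control library 6 (-64.4) and model libraries 7 and 8 (-61.2 and -45.4). Summary lines that name no gene held 27.4%, 30.5% and 31.1% of entries in these libraries, within 27.4% to 45.6% over all. Control library 3, at a score of -39.8, held 36.3%, and model library 2, at -14.0, held 30.6%. What this component follows was not tested. Among 8980 genes of at least 5 CPM, the closest to Gnmt were Gsta3, BC024386 and Mcrip2 (0.98 each). The closest to Mat1a were Mertk (0.90), Rps6ka1 (0.89) and Rai14 (0.88), and those to Mat2a were Hdac2 (0.94), Septin7 (0.92) and Brox (0.91). Without model libraries 7 and 8 the Mat2a values fell to 0.81, 0.79 and 0.72, while those of Gnmt and Mat1a were 0.87 or higher.

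The wider pathway, 104 further genes in 8 lists, was examined in the same fit. Of 101 tested, 19 rose, 28 fell and 54 did not pass, which is 46.5% called beside 47.9% of all genes. Their median log2 fold change was -0.09. With library totals 12 rose and 40 fell, and with upper-quartile factors 14 rose and 35 fell.

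**Figure D4:**
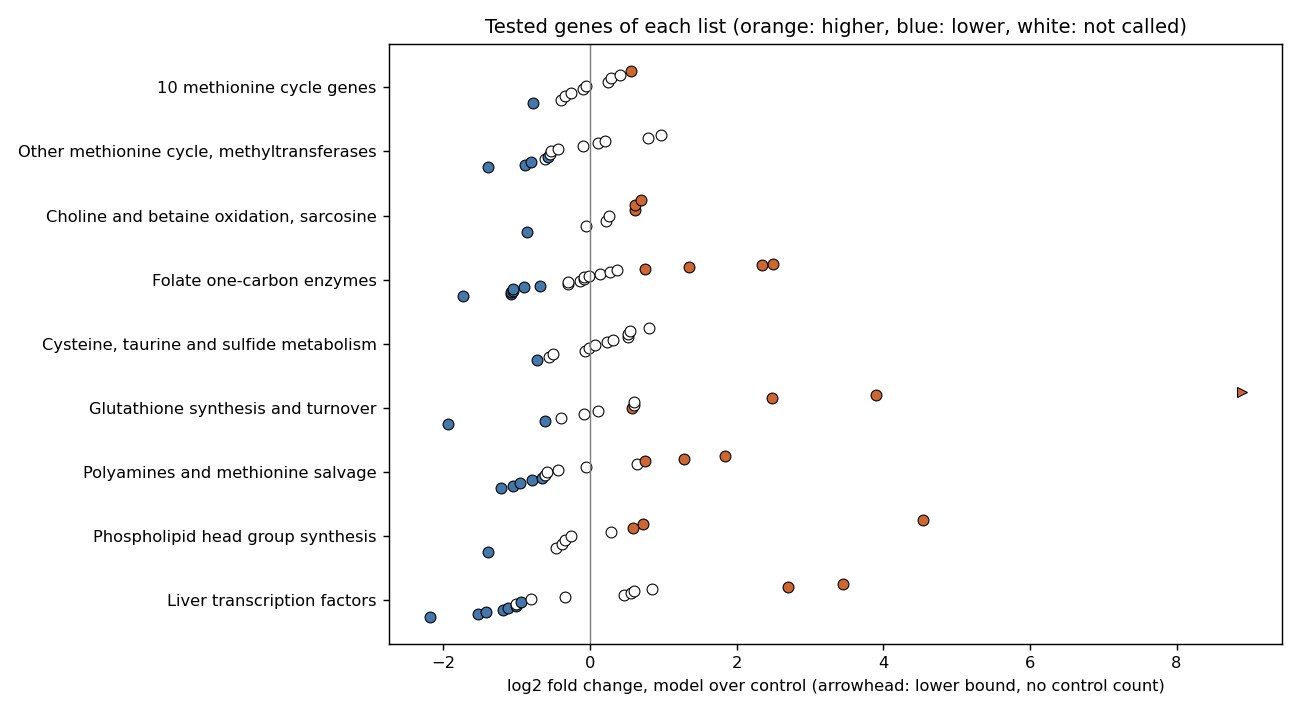
Log2 fold change, model over control, of each tested gene of the members and of 8 pathway lists, with orange for higher, blue for lower and white for not called at an edgeR adjusted p of 0.05, and an arrowhead for Slc7a11, a lower bound. The 10 members lie between -0.77 and 0.56, a narrower span than in any of the 8 lists.

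Of 13 other cycle genes and methyltransferases, 0 rose, 4 fell and 9 did not pass, and the list's median was -0.53 on the log2 scale. At an unadjusted p under 0.05 in edgeR, 2 were higher, Ahcyl2 and Mtrr, and DESeq2 and limma-voom called 1 higher each. Mat2b, the regulatory subunit that pairs with the MAT2A protein, fell from 40.8 ± 11.1 CPM (SD, n = 6) to 15.6 ± 4.11 CPM (SD, n = 8), with ranges that did not overlap (log2 fold change -1.39, SE 0.22, edgeR adjusted p = 5.96e-05). The Mat2b value is opposite in sign to that of Mat2a, whose own call was lost in 11 of 24 alternatives. Tpmt, thiopurine methyltransferase, fell by 0.89 on the log2 scale (adjusted p = 0.0022). Mettl16, the methyltransferase known to act on Mat2a transcripts, had a log2 fold change of 0.10 (adjusted p = 0.779). Mtr and Mtrr, the cobalamin-dependent route of remethylation, had 0.20 and 0.97 (adjusted p = 0.625 and 0.0559). The last 3 were chosen after their values were seen.

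Of 7 genes of choline and betaine oxidation, 3 rose, 1 fell and 3 did not pass. The choline transporter Slc44a1 rose from 32.1 ± 2.06 to 51.9 ± 9.65 CPM (SD, n = 6 and n = 8; log2 fold change 0.70, edgeR adjusted p = 0.00153), and the other 2 that rose were Dmgdh and Aldh7a1, the latter (0.61, adjusted p = 0.0141) named after its value was seen. Chdh, choline dehydrogenase, which starts the oxidation of choline to the betaine that Bhmt uses, was lower (75.4 ± 47.2 to 41.6 ± 15.5 CPM, log2 fold change -0.86, adjusted p = 0.0404). The ranges overlapped, and without control library 6 the Chdh value was -0.48 (adjusted p = 0.199). The call was also lost without model library 1, 5, 6, 7 or 8 and without control library 3 or 5.

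Folate enzymes, which supply the other route of remethylation, had 4 of 20 tested genes higher and 7 lower. Mthfd2, a mitochondrial enzyme of one-carbon units that is low in adult liver, rose from 1.54 ± 0.297 to 7.89 ± 1.77 CPM (SD, n = 6 and n = 8; log2 fold change 2.35, edgeR adjusted p = 1.52e-07). Fpgs, which retains folate in cells, fell by 1.73 on the log2 scale (edgeR adjusted p = 7.65e-05), and for both genes the ranges of the groups did not overlap.

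Downstream of cysteine, the taurine and sulfide list had 0 of 12 genes higher, 1 lower and 11 not called. At an unadjusted p under 0.05 in edgeR, 3 were higher (Got1, Got2 and Slc6a6), and DESeq2 called 1 and limma-voom 3 of the list as higher. The gene that fell was Baat, which joins bile acids to taurine and glycine (254 ± 31.8 to 155 ± 25.9 CPM, SD, n = 6 and n = 8; log2 fold change -0.72, edgeR adjusted p = 0.00142). Csad, the enzyme after Cdo1 on the way to taurine, had a log2 fold change of -0.01, and was chosen after its value was seen.

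Glutathione genes had 4 of 11 higher and 2 lower. Slc7a11, the cystine transporter subunit, had 0 counts in all 6 control libraries and 19.0 ± 9.75 CPM in model (SD, n = 8), at least 474.8-fold higher against a floor of 3 counts over the control group (0.0401 CPM). Its partner Slc3a2 rose from 13.2 ± 3.63 to 73.6 ± 15.9 CPM (SD, n = 6 and n = 8; log2 fold change 2.48, edgeR adjusted p = 7.0e-08). Cbs and Cth, the genes of cysteine synthesis, did not pass the test, and the difference between uptake and synthesis genes was not tested. Chac2, a glutathione-degrading enzyme, and Gclm, the modifier subunit of glutamate-cysteine ligase, fell by 1.93 and 0.61 on the log2 scale (adjusted p = 0.000367 and 0.00182).

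Polyamine synthesis draws on decarboxylated S-adenosylmethionine, and methionine salvage returns its sulfur. In that list 3 of 13 genes rose and 5 fell. Odc1, ornithine decarboxylase, rose from 126 ± 30.1 to 452 ± 113 CPM (SD, n = 6 and n = 8; log2 fold change 1.85, edgeR adjusted p = 3.47e-06), and Sat1, which acetylates polyamines, rose by 1.28 (adjusted p = 0.00824). The salvage enzymes Apip and Adi1 fell by 1.21 and 1.05 on the log2 scale (adjusted p = 0.00408 and 0.00145).

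In phospholipid synthesis, the route that shares its product with Pemt, 3 of 9 tested genes rose and 1 fell. Chka, choline kinase alpha, ran from 18.1 to 469 CPM among model libraries, all above the controls (9.34 ± 2.61 CPM, SD, n = 6), with a log2 fold change of 4.54 (SE 0.57, edgeR adjusted p = 3.99e-06). Etnk2, ethanolamine kinase, fell from 291 ± 43.9 to 111 ± 13.4 CPM (log2 fold change -1.39, adjusted p = 1.05e-06). Pisd, which makes phosphatidylethanolamine from phosphatidylserine, was higher by 0.73 on the log2 scale (adjusted p = 0.00203) but shares 20.1% of its exon bases with Gm20671, and with library totals it was 0.47 (adjusted p = 0.0836).

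Of 16 liver transcription factors 2 rose and 7 fell. The median of this list was -0.88 on the log2 scale. Cebpb rose from 24.6 ± 7.80 to 160 ± 92.0 CPM and Cebpd from 4.86 ± 1.91 to 52.9 ± 10.8 CPM (SD, n = 6 and n = 8; log2 fold changes 2.70 and 3.45, edgeR adjusted p = 2.02e-05 and 1.27e-08), with 20.7% and 15.0% of their exon bases shared with a gene of the opposite strand. The bile acid receptor gene Nr1h4 fell by 2.18 on the log2 scale (adjusted p = 2.14e-09). Nr1i3, the constitutive androstane receptor, fell by 1.53 (adjusted p = 0.00421) and shares 74.9% of its exon bases with Tomm40l. Hnf4a, named after its value was seen, had a log2 fold change of 0.84 (adjusted p = 0.0867).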

How the data were processed

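The deposited values are raw counts of reads per gene, 1 file per library. Per the submitters' processing notes, HISAT2 and build GRCm39 were used for alignment. The sources used here do not name the counting program, its strand setting, the annotation or the aligner's version. Summary lines that name no gene held 27.4% to 45.6% of the entries of a library and were left out. Genes were filtered with filterByExpr (12915 kept) and tested with edgeR 4.0.16 in R 4.3.3 (TMM factors, robust quasi-likelihood fit on group, two-sided, Benjamini-Hochberg adjustment over all tested genes). CPM used the TMM factors, log2 CPM a prior count of 2. SE is the log2 fold change over the root of F. Lengths, overlaps and copies (at least 400 bases at 90% identity) came from GENCODE of build GRCm38. Every pair of libraries within a group differed by more than counting noise. The members and lists were chosen with earlier results of these data known. Of each further list, the text names the called genes of at least 5 CPM in a group with the 2 largest changes in each direction. Some genes that this rule names are not reported here. Alternatives were other scalings, DESeq2 1.42.0, limma-voom (limma 3.58.1), no low-count filter, an offset on exonic length and GC content, a replicate block and left-out libraries. The fit was tested on simulated data.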

Additional observations from a re-analysis of the deposited data

Results flagged for a closer look

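Levels of the 10 members and of 25 named pathway genes were examined in both groups, and their within-library ratios likewise, for a library with a gap to its nearest neighbour that was wide for the range of its group. Of 74 sets of values 4 had such a gap, and chance alone gives about 1 in 20. No member was among them. Slc44a1 was at 72.3 CPM in model library 2, with the next at 55.0 CPM. Gclm was at 137.8 CPM in control library 1, below the next at 174.6 CPM. Chka was at 14.6 CPM in the same control library, with the next at 8.53 CPM. Nr1h4 was at 155.6 CPM in control library 6, with the next at 115.0 CPM.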

How the results depend on the processing

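Over 24 alternatives, the number of members called higher (1 as reported) was 0 with upper-quartile factors, library totals, no low-count filter and without model libraries 7 and 8, and 0 to 1 on leaving out each library. The number called lower (1 as reported) was 2 with upper-quartile factors, library totals and DESeq2, which added Cdo1, and 1 on leaving out any library. Of the further pathway genes 19 rose as reported, 12 with library totals, and 17 to 25 on leaving out each library. The number that fell, 28 as reported, was 40 with library totals, 35 with upper-quartile factors and 24 to 29 on leaving out each library. All genes gave 2975 to 3983 higher and 2452 to 2809 lower on leaving out each library. Members near 0 changed sign without being called. Ahcy (-0.06 as reported) ran from -0.13 to 0.035 on leaving out each library, above 0 without model library 7 or 8 or control library 6, and was 0.15 without model libraries 7 and 8. Cth (-0.09) ran from -0.19 to 0.047, above 0 without model library 7 or 8, and was 0.20 without both. Bhmt (0.25) was -0.043 with library totals. Mat2a ranged from 0.33 to 0.68 and Bhmt2 from -1.05 to -0.46. Of 600 comparisons for named pathway genes 581 kept direction and call, and 19 lost the call, all for Dmgdh, Chdh or Pisd. The causes were not tested.

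Labels give both groups the numbers 1 to 6. Same-numbered libraries did not in general deviate together (correlations from -0.34 to 0.36, 1 of 6 libraries closest to its own number). No pairing by number was thus seen, though a weak pairing, or one limited to few genes, would not show in this check. With a replicate block over these 12 libraries 0 members were higher and 0 lower, Mat2a being at 0.34 and Bhmt2 at -0.48 (edgeR adjusted p = 0.150 and 0.0695), Ahcy at 0.16 and Cth at 0.20. This fit leaves out model libraries 7 and 8. With these left out and no block, Bhmt2 was called (-0.46, edgeR adjusted p = 0.0205) and Mat2a was not (0.34, edgeR adjusted p = 0.0983).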
